A study of Mus musculus with 8 samples.

Results

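Superoxide dismutases, catalase, glutathione peroxidases and peroxiredoxins remove the reactive oxygen species that cells make, and 10 genes of these families were examined in brown adipose tissue (BAT): *Sod1*, *Sod2*, *Cat*, *Gpx1*, *Gpx4*, *Prdx1*, *Prdx2*, *Prdx3*, *Prdx5* and *Prdx6*. They were chosen by symbol as named enzymes of these families, by a rule that uses no measured value, though earlier results of these data were known. They are 10 of the 33641 genes in the data and 10 of the 14851 that were tested. Poly(A) RNA-seq was done on interscapular BAT of C57BL/6 mice aged 28 weeks. Labels give 3 libraries as wild-type control (A7, A8 and A12) and 5 as HuR knockout (A24, A25, A26, A29 and A31). In the knockout, HuR floxed alleles (*Elavl1*, an RNA binding protein) were deleted by adiponectin-driven Cre (*Adipoq-cre*), so that deletion is limited to cells that express adiponectin, and these mice are called *Adipo-HuR-/-*. The controls were wild-type littermates, which the study describes as wt/wt with Cre, flox/flox without Cre or wt/flox without Cre, and the labels do not say which of these each library was. Totals were 60622522, 51751002 and 50673814 counts in A7, A8 and A12, and 18264754, 17558090, 67498055, 50893173 and 58727739 counts in A24, A25, A26, A29 and A31. The libraries carry separate numbers, but the labels do not say that each came from its own mouse, and if any did not, p-values measure only the spread between these libraries.

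*Elavl1*, the deleted gene, was at 50.6, 48.0 and 49.2 CPM (counts scaled to a common library total with TMM factors, the unit of all gene values unless another is named) in A7, A8 and A12, and at 61.9, 47.3, 43.4, 61.3 and 61.2 CPM in A24, A25, A26, A29 and A31. Values are given in this order of libraries throughout. The *Elavl1* total was thus not lower in *Adipo-HuR-/-*-labelled libraries, with a log2 fold change of 0.16 (SE 0.162, 95% interval -0.20 to 0.52, adjusted p = 0.667). It was 0.38 with total counts only (adjusted p = 0.296), and 0.46 for the transcript with the most counts (unadjusted p = 0.0269, adjusted p = 0.294), by alternatives chosen after seeing the data. The total sums all transcripts of the gene, and which exons the deletion removes is not given in the sources used here, so that it does not check the labels. The study also gives the group sizes the other way round from the labels. Groups are therefore called by their labels. Every direction below rests on those labels and would turn if they were exchanged.

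Superoxide dismutases convert superoxide, which leaks from the respiratory chain, to hydrogen peroxide. Catalase, glutathione peroxidases and peroxiredoxins then reduce the peroxide, the last of these families with electrons that come mostly from thioredoxin and, as for the glutathione enzymes, ultimately from NADPH. Brown adipocytes burn fatty acids in dense mitochondria and in peroxisomes, which are both sources of these oxidants.

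All 10 genes passed the filter on low counts, with 3058 to 66891 counts per gene and library. In edgeR's quasi-likelihood test, 0 of the 10 were past the threshold of adjusted p at most 0.05 and fold change at least 1.5, against 0.707% of all genes tested. DESeq2's Wald test and limma voom also placed 0 of the 10 past it, against 5.54% and 1.06% of all genes. At an unadjusted p of at most 0.05 there was 1 of the 10, *Cat*, against 17.0% of all genes. The groups overlapped in each of the 10, whereas 11.5% of all genes had groups that did not overlap. The fold change was above 1 in 4 of the 10, against 50.1% of all genes, and the median log2 fold change of the 10 was -0.10, beside 0.00098 over all genes. In this bulk tissue, fewer cells of a type and less RNA per cell cannot be told apart.

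With 3 and 5 libraries the intervals were wide. The 95% interval of the difference lay within 1.5-fold in either direction for 3 genes, *Prdx1*, *Prdx3* and *Prdx6*, and reached past 1.5-fold in at least 1 direction for the other 7. A p that misses the threshold does not show that these genes are alike in the groups.

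**Figure D1:**
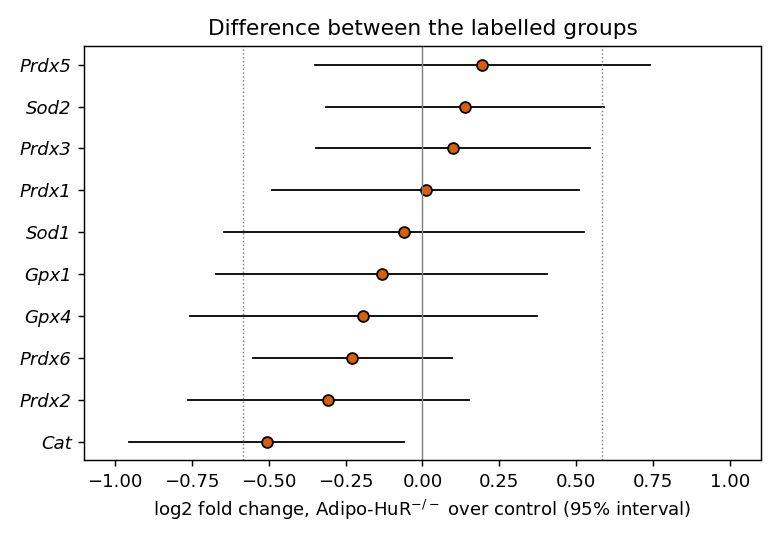
Log2 fold change of each antioxidant gene in BAT libraries labelled Adipo-HuR-/- over those labelled control, with its 95% interval (points and bars, edgeR, 3 and 5 libraries). Dotted lines mark 1.5-fold. The interval of Cat, -0.95 to -0.061, lies below 0 before adjustment over all genes, and the other 9 intervals include 0.

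*Sod1*, the copper and zinc superoxide dismutase of the cytosol and intermembrane space (ENSMUSG00000022982.10, chr16:90220754-90226329, plus strand, GRCm38), was at 315, 623 and 334 CPM in control-labelled libraries and at 561, 408, 322, 369 and 373 CPM in *Adipo-HuR-/-*-labelled ones. A8 and A24 stood above the rest, 1 from each group, and the groups overlapped throughout. The log2 fold change was -0.061 (SE 0.264, 95% interval -0.65 to 0.53, adjusted p = 0.930). Its sign turned in 3 of the alternative analyses and with A8 or A26 left out, where it was 0.33 and 0.014. *Sod2*, the manganese enzyme of the mitochondrial matrix (ENSMUSG00000006818.5, chr17:13007817-13020134, plus strand), was at 596, 883 and 585 CPM and at 932, 765, 689, 762 and 640.1 CPM. A24 was the highest library and A12 the lowest, and A8 lay above 4 of the 5 *Adipo-HuR-/-*-labelled libraries. Mean levels were 688 ± 169 CPM (SD over n = 3) for the control label and 757 ± 111 CPM (SD over n = 5) for the *Adipo-HuR-/-* label. Its log2 fold change was 0.14 (SE 0.203, 95% interval -0.31 to 0.59, adjusted p = 0.778).

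*Cat* encodes catalase, the peroxisomal enzyme that splits hydrogen peroxide to water and oxygen (ENSMUSG00000027187.10, chr2:103453849-103485160, minus strand). It was at 631, 873 and 987 CPM in control-labelled libraries and at 667, 466, 603, 519.6 and 666 CPM in *Adipo-HuR-/-*-labelled ones. A8 and A12 were above all 5 *Adipo-HuR-/-*-labelled libraries, and A7 lay among them, below A24 and A31. Mean levels were 830.4 ± 182 CPM (SD over n = 3) for the control label and 584 ± 89.2 CPM (SD over n = 5) for the *Adipo-HuR-/-* label. The fold change was 0.704 (95% interval 0.516 to 0.959), the largest difference among the 10 genes, and did not pass adjustment over all genes (log2 fold change -0.51, SE 0.201, adjusted p = 0.235). With A7, the only control-labelled library within the range of the *Adipo-HuR-/-*-labelled ones, left out, the groups no longer overlapped (as in 19.1% of all genes without it) and the log2 fold change was -0.67 (adjusted p = 0.200). With A12 left out it was -0.36 (adjusted p = 0.567), and over all alternatives the adjusted p lay between 0.119 and 0.567. With total counts as the only scaling, the log2 fold change of *Cat* was -0.27.

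*Gpx1*, the abundant cytosolic and mitochondrial glutathione peroxidase (ENSMUSG00000063856.7, chr9:108338903-108340343, plus strand), was at 249, 286 and 231 CPM in control-labelled libraries and at 359.9, 242, 175, 176 and 212 CPM in *Adipo-HuR-/-*-labelled ones. A24 was above every other library, and A26 and A29 were the lowest. The coefficient of variation was 32.6% in *Adipo-HuR-/-*-labelled libraries, the widest of the 10 genes in that group, and 11.1% in control-labelled ones. Its log2 fold change was -0.13 (SE 0.243, 95% interval -0.67 to 0.41, adjusted p = 0.828), and -0.35 with A24 left out, -0.035 with A8 left out and -0.45 without A24 and A25 (adjusted p = 0.319). *Gpx4* encodes the peroxidase that reduces lipid hydroperoxides within membranes and protects cells from ferroptosis (ENSMUSG00000075706.10, chr10:80047166-80056439, plus strand). It was at 1083, 1682 and 925 CPM and at 1496, 1099, 822, 999 and 969 CPM. A8 and A24 were again the highest, and A26 and A12 the lowest. Its log2 fold change was -0.19 (SE 0.254, 95% interval -0.76 to 0.37, adjusted p = 0.754), and 0.11 with A8 left out. Both enzymes are selenoproteins.

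*Prdx1*, a cytosolic peroxiredoxin that thioredoxin recycles (ENSMUSG00000028691.12, chr4:116685544-116700822, plus strand), was at 255, 430.2 and 317 CPM in control-labelled libraries and at 454, 262, 322, 303 and 339.7 CPM in *Adipo-HuR-/-*-labelled ones. Means of 334 ± 88.9 CPM (SD, n = 3) and 336 ± 72.0 CPM (SD, n = 5) were closer than for any other of the 10 genes. The log2 fold change was 0.010 (SE 0.225, 95% interval -0.49 to 0.51, adjusted p = 0.986), and its sign turned in 3 alternatives and with A7, A12, A24 or A31 left out. *Prdx2*, a related cytosolic enzyme that is most abundant in red blood cells (ENSMUSG00000005161.15, chr8:84969587-84974834, plus strand), was at 160.0, 249 and 148 CPM and at 187, 145, 124, 151 and 143 CPM. A8 stood above the other 7 libraries, and the rest lay between 124 and 187 CPM. Its log2 fold change was -0.31 (SE 0.206, 95% interval -0.76 to 0.15, adjusted p = 0.494). With A8 left out it was -0.030. Erythroid markers summed to 774, 972 and 1083 CPM in control-labelled libraries and 1156, 519, 366, 856 and 778 CPM in *Adipo-HuR-/-*-labelled ones. All 12 were detected, 8 were tested, and *Hbb-bs* was the most abundant. Their part in the level of *Prdx2* was not tested.

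*Prdx3*, the mitochondrial peroxiredoxin (ENSMUSG00000024997.7, chr19:60864051-60874556, minus strand), was at 241, 373 and 278 CPM in control-labelled libraries and at 376, 272, 375, 302 and 269 CPM in *Adipo-HuR-/-*-labelled ones. A8, A24 and A26 were the highest and within 1 percent of each other, and A7 was the lowest. Its log2 fold change was 0.10 (SE 0.201, 95% interval -0.34 to 0.55, adjusted p = 0.842), and -0.031 with A7 left out. *Prdx5*, which acts in mitochondria, peroxisomes and the cytosol (ENSMUSG00000024953.17, chr19:6906697-6910106, minus strand), was at 207, 346 and 191 CPM and at 385, 298, 224, 259 and 253 CPM. A7 and A12 lay below all 5 *Adipo-HuR-/-*-labelled libraries, and A8 lay above 4 of them. The log2 fold change of *Prdx5* was 0.19 (SE 0.246, 95% interval -0.35 to 0.74, adjusted p = 0.739), and -0.023 without A24 and A25, which had the lowest totals. With A8 left out, the only control-labelled library within the range of the *Adipo-HuR-/-*-labelled ones, the groups did not overlap (as in 26.9% of all genes without it) and it was 0.52 (adjusted p = 0.233). *Sod2* too had groups that did not overlap without A8, likewise its only such library, with a log2 fold change of 0.36 (adjusted p = 0.321).

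*Prdx6* encodes a peroxiredoxin that uses glutathione and also has phospholipase activity (ENSMUSG00000026701.15, chr1:161240112-161251219, minus strand). It was at 209, 230.0 and 237 CPM in control-labelled libraries and at 210.1, 167, 211, 179 and 195 CPM in *Adipo-HuR-/-*-labelled ones. A7 lay just below A24 and A26, and A8 and A12 were above all 5 *Adipo-HuR-/-*-labelled libraries. *Prdx6* varied least in the control group, with a coefficient of variation of 6.27%, and had the narrowest interval of the 10 genes. The log2 fold change was -0.23 (SE 0.146, 95% interval -0.55 to 0.10, adjusted p = 0.467). With A7, the only control-labelled library within the range of the *Adipo-HuR-/-*-labelled ones, left out, its groups did not overlap (as in 19.1% of all genes), and the log2 fold change was -0.28 (adjusted p = 0.468). With total counts only it was -0.00054 (adjusted p = 0.999).

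**Figure D2:**
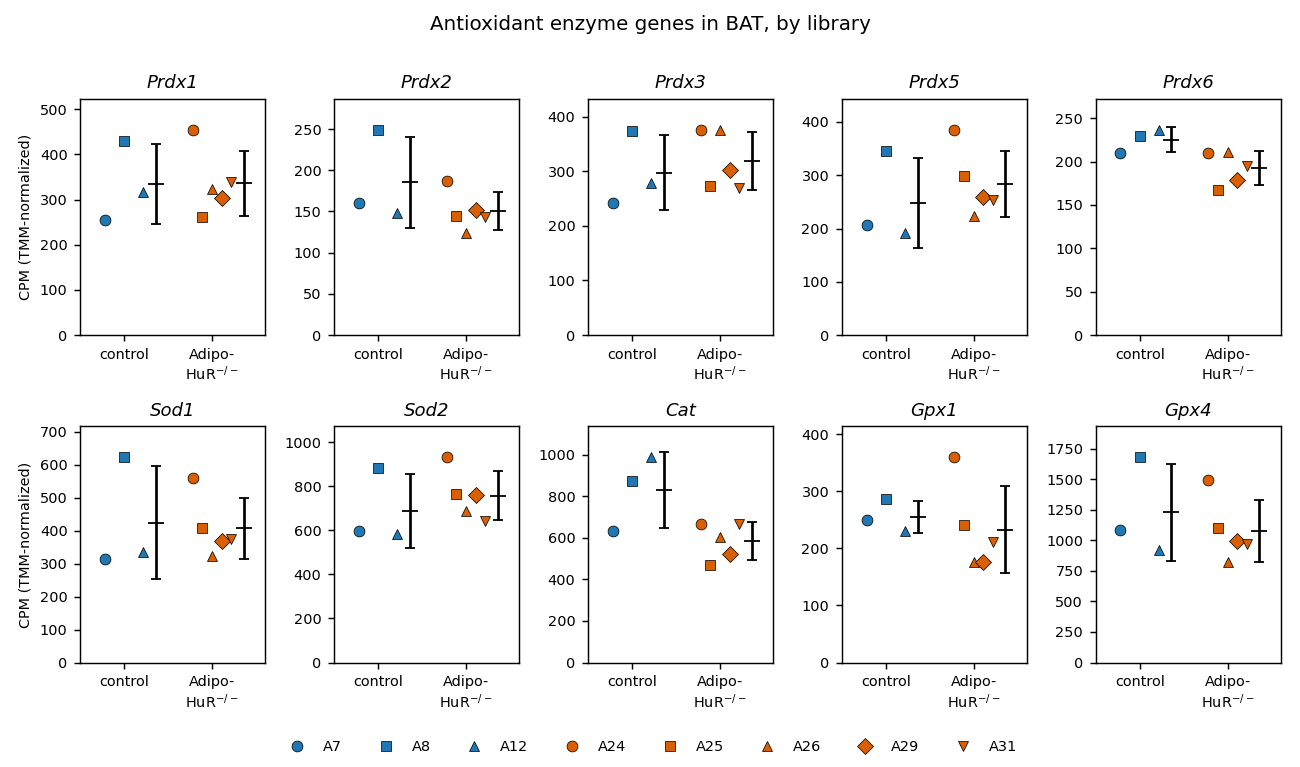
Level of each antioxidant gene (y axis, CPM after TMM scaling, from 0) in each BAT library labelled control (blue) or Adipo-HuR-/- (orange). Each point is 1 library, and bars give the mean and SD (n = 3 and n = 5). A8 is the highest library labelled control in 8 of the 10 genes and A24 the highest labelled Adipo-HuR-/- in 9.

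The direction of several genes depended on how libraries were scaled. TMM factors ran from 0.763 in A8 to 1.20 in A25. With total counts only, the log2 fold change at the median of all genes moved to 0.23, and 7 of the 10 antioxidant genes were above 0 in place of 4. *Prdx3* was then at 246, 285 and 262 CPM of the library total in control-labelled libraries and at 365, 327, 375, 313 and 303 in *Adipo-HuR-/-*-labelled ones, so that the groups did not overlap. *Sod2* was likewise at 607, 674 and 553 and at 904, 918, 689, 790.3 and 719.5 CPM of the library total, again without overlap. These were 2 of the 10, against 13.4% of all genes on that scale. The log2 fold changes on that scale, 0.35 for *Prdx3* and 0.40 for *Sod2*, are to be read beside the median of all genes there. *Sod1*, *Gpx1* and *Gpx4* turned from below 0 to 0.22, 0.10 and 0.073. On that scale too, 0 of the 10 were past the threshold by edgeR, and 2 had an unadjusted p of at most 0.05, against 20.1% of all genes.

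Levels were compared between genes per length, as TPM (transcript counts divided by length and scaled to a common total) averaged over the 8 libraries. *Gpx4* was the most abundant at 1752 TPM, followed by *Sod1* at 872 TPM, and this order held in 8 of 8 libraries. *Sod1* in turn was above *Gpx1* (mean 413 TPM) in 8 of 8. *Gpx1*, *Cat* (381 TPM), *Prdx5* (347 TPM), *Prdx1* (301 TPM) and *Prdx3* (288 TPM) followed, and neighbours in this stretch kept their order in only 4 to 6 of 8 libraries. *Prdx3* was above *Prdx6* (217 TPM) in 8 of 8. *Prdx2* (199 TPM) and *Sod2* (172 TPM) came last, and *Prdx6*, *Prdx2* and *Sod2* kept their order in 5 or 6 of 8. *Sod2* was counted over a single annotated transcript of 5861 bases, the longest used for the 10 genes. *Ucp1*, the uncoupling protein of brown fat, had a mean of 6632 TPM. Of the close relatives, secreted *Gpx3* had a mean of 694 TPM, extracellular *Sod3* 65.3 TPM and *Prdx4*, the peroxiredoxin of the endoplasmic reticulum, 8.36 TPM.

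Across the 8 libraries, log2 CPM of the 10 genes varied together in most of the 45 pairs, with a median Pearson's r of 0.61, a range of -0.17 to 0.95 and 10 pairs above 0.8. *Prdx5* and *Sod2* had r = 0.95, and mitochondrial *Prdx3* had r = 0.59 with *Prdx5* and 0.73 with *Sod2*. *Prdx2* with *Gpx4* had r = 0.95, *Sod1* with *Gpx4* r = 0.93 and *Sod1* with *Prdx5* r = 0.92. *Cat* and *Prdx6* formed a pair of their own, at r = 0.93, and the 4 negative values each joined 1 of them to *Prdx5* or *Sod2*: -0.17 for *Prdx6* with *Prdx5*, -0.16 for *Cat* with *Sod2*, -0.14 for *Cat* with *Prdx5* and -0.14 for *Prdx6* with *Sod2*. These points share the library, its scaling and the labelled groups. The r with the TMM factor lay between -0.79 for *Prdx6* and -0.23 for *Prdx5*.

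**Figure D3:**
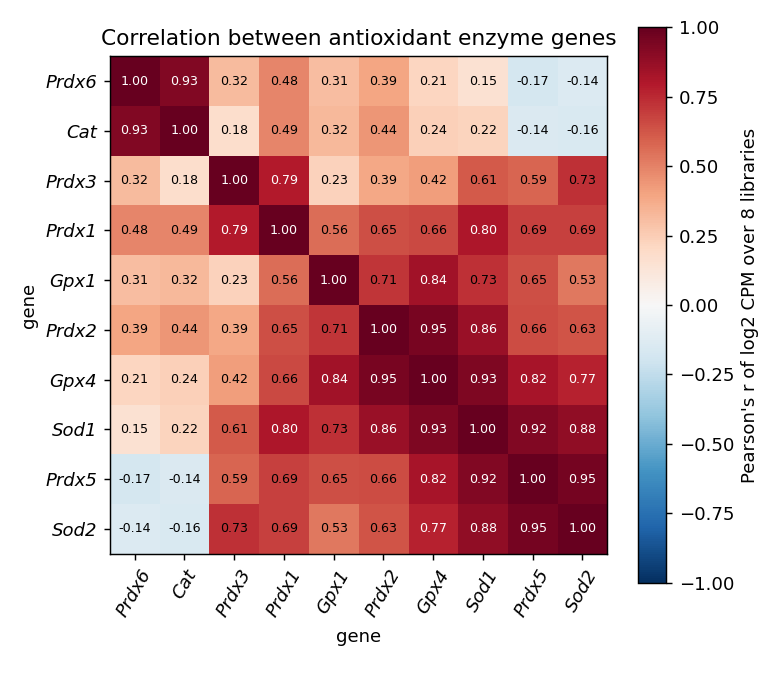
Pearson's r between antioxidant genes (both axes) over the 8 BAT libraries, from log2 CPM after TMM scaling. Red marks positive and blue negative r. Cat and Prdx6 pair at 0.93, and Prdx5 and Sod2 at 0.95.

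A score of 18 nuclear genes for mitochondrial mass and import, as mean log2 CPM, was set beside each gene over the 8 libraries. Its r was 0.90 with *Prdx1*, 0.88 with *Sod1*, 0.87 with *Prdx5*, 0.85 with *Sod2* and 0.71 with *Gpx4*. It was 0.70 with *Prdx3*, 0.65 with *Prdx2*, 0.48 with *Gpx1*, 0.14 with *Cat* and 0.081 with *Prdx6*. Those 18 genes, led by *Cs*, summed to 7588, 8618 and 7470.3 CPM in control-labelled libraries and 8209.8, 7553, 7829.6, 7742 and 7719 CPM in *Adipo-HuR-/-*-labelled ones. Genes encoded by mitochondrial DNA took 17.3, 33.1 and 27.2% of counts and 21.6, 14.3, 25.6, 26.5 and 22.5% respectively. Their part in the antioxidant levels was not tested. With the score as a covariate, *Prdx2* had the lowest adjusted p of the 10 genes, 0.0993.

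Genes whose pattern over the 8 libraries was most like each antioxidant gene were taken from all genes tested. For *Sod1* these were *Tmem14c* (r = 0.99), *Tomm7* (r = 0.99) and *Bola1* (r = 0.99). *Sod2* was nearest to *Yars2* (r = 0.99), *Ndufb6* (r = 0.98) and *Ndufv2* (r = 0.98). For *Cat* they were *Hnrnpa2b1* (r = 0.98), *Stt3b* (r = 0.98) and *Mospd1* (r = 0.98), and *Mospd1* was also among those of *Prdx6*, which were *Lmbrd1* (r = 0.98), *Mospd1* (r = 0.96) and *Eif3j1* (r = 0.96). *Prdx5* was nearest to *Bola2* (r = 0.99), *Uqcrq* (r = 0.99) and *Tmem261* (r = 0.99). *Prdx1* had *Rnf113a1* (r = 0.99), *Diablo* (r = 0.98) and *2610001J05Rik* (r = 0.98), *Prdx2* had *Gstm5* (r = 0.99), *Anapc13* (r = 0.98) and *Ostf1* (r = 0.98), and *Prdx3* had *Pepd* (r = 0.94), *Gm28661* (r = 0.94) and *Cib2* (r = 0.94). *Gpx1* was nearest to *Cnih1* (r = 1.00), *Cma1* (r = 0.96) and *Vti1b* (r = 0.96), and *Gpx4* to *Dnlz* (r = 0.98), *Bola3* (r = 0.98) and *D8Ertd738e* (r = 0.98). Over 14851 genes and 8 libraries, values this high are a description of these libraries.

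The 10 genes had 43 transcripts in the data, and reads that fit several of them had been divided between them, so that shares are estimates. *Sod1*, *Sod2* and *Prdx3* had a single transcript each, and in *Cat* the transcript ENSMUST00000028610.9 held 97.1% ± 1.83 (SD, n = 3) of the gene's counts in control-labelled libraries and 96.2% ± 2.46 (SD, n = 5) in *Adipo-HuR-/-*-labelled ones. The main *Gpx4* transcript, ENSMUST00000105372.7 with a coding length of 591 bases, held 70.8% ± 5.25 (SD, n = 3) and 73.4% ± 1.65 (SD, n = 5). In *Gpx1*, the spliced transcripts ENSMUST00000193987.1 (45.4% ± 5.98 (SD, n = 3) and 41.7% ± 4.30 (SD, n = 5)) and ENSMUST00000082429.6 (41.9% ± 1.34 (SD, n = 3) and 40.0% ± 2.82 (SD, n = 5)) shared most counts. ENSMUST00000135573.7 led in *Prdx1* with 76.1% ± 2.10 (SD, n = 3) and 71.0% ± 4.41 (SD, n = 5). In *Prdx6*, a transcript annotated for nonsense-mediated decay, ENSMUST00000192639.5, took the largest share, 49.3% ± 7.67 (SD, n = 3) and 48.5% ± 4.50 (SD, n = 5). Among the 18 transcripts tested in 6 genes, the lowest two-sided exact permutation p was 0.0714 and the smallest that 56 assignments allow is 0.0357. That transcript, *Prdx6* ENSMUST00000051925.4, held 5.48, 5.76 and 3.56% of its gene in control-labelled libraries and 5.58, 6.28, 7.11, 6.18 and 7.67% in *Adipo-HuR-/-*-labelled ones (adjusted p = 0.714 by the exact permutation test). *Prdx2* ENSMUST00000109734.7, below the 5% minimum and chosen after its values were seen, held 3.63, 1.57 and 2.57% and 4.22, 6.82, 7.16, 5.48 and 6.16%, without overlap. It was the only transcript of the 43 whose groups did not overlap.

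Copies and overlapping genes could take or lend reads. *Gpx4* shared 38.7% of its 31-base words with RP23-269H21.1, which had a mean of 26.7 counts beside 49931 for *Gpx4*. *Sod1* shared 34.9% with *Gm8566*, which had a mean of 1.14 counts. On the opposite strand, *Prdx5* shared 17.1% of its words with *Trmt112* (mean 412 counts, 3.50% of the *Prdx5* mean). *Prdx2* shared 4.76% with *Junb* and 4.40% with *Rnaseh2a* on the opposite strand. Whether counting used strand is not given in the sources used here, so the values of *Prdx5* and *Prdx2* are uncertain by these overlaps.

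NRF2 (*Nfe2l2*), the transcription factor that drives many antioxidant genes, binds an antioxidant response element with the core TGACNNNGC. Windows of 300 bases, from 250 before to 50 after the start, were searched on both strands in RefSeq promoters (GRCm38.p6), which held 9 of the 10 genes. *Prdx6* had no entry. A match was present in *Prdx1* and *Sod1*, 2 of the 9, and in 14.0% of all genes in the table. Of the 49 glutathione, thioredoxin and NRF2 genes described below, 41 had an entry, and *Gclc* and *Gsr* were among those without one. The 41 were searched after their values were seen, and 11 of them had a match. Those of *Prdx1* and *Sod1*, and of the glutathione and sulfiredoxin genes *Gclm* and *Srxn1*, are shown with 10 bases on each side. They are the matches in searched genes whose values are given in every library (*Gclm* and *Srxn1* for their lack of overlap between groups after TMM scaling). Capitals mark the match, which in all 4 reads as the core on the minus strand.
Prdx1, chr4:116685456-116685484 (plus strand): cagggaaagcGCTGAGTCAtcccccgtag
Sod1, chr16:90220696-90220724 (plus strand): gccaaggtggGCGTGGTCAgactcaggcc
Gclm, chr3:122245413-122245441 (plus strand): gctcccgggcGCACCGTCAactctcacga
Srxn1, chr2:152105542-152105570 (plus strand): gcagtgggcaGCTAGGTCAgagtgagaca
A match is a description of these letters, and binding was not measured. *Prdx1* and *Sod1* had r = 0.80 over the 8 libraries, and the part of these matches in their levels was not tested.

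The enzymes that recharge peroxiredoxins and glutathione peroxidases were read from gene lists, and counts in each list are to be read beside the shares of all genes. These were 0.707% past the threshold by edgeR, 5.54% by DESeq2's Wald test, 1.06% by limma voom, 1.87% by edgeR with the mitochondrial score and 0.815% with total counts only, 17.0% at an unadjusted p of at most 0.05 and 11.5% without overlap. *Srxn1*, the sulfiredoxin that repairs overoxidized peroxiredoxins, was at 95.3, 109.5 and 94.0 CPM in control-labelled libraries and at 85.6, 49.3, 56.8, 69.4 and 75.7 CPM in *Adipo-HuR-/-*-labelled ones. Each of the 5 lay below each of the 3 after TMM scaling, but the difference did not pass the threshold (log2 fold change -0.56, SE 0.188, adjusted p = 0.164). With total counts only, *Srxn1* in A31 was above A8, so that the groups overlapped. Over all alternatives its log2 fold change ran from -0.69 to -0.33. Of 17 genes of the thioredoxin and sulfiredoxin system, 0 were past the threshold by edgeR, DESeq2's Wald test or limma voom, and 2 had an unadjusted p of at most 0.05, *Srxn1* and *Msrb3* (-0.41, adjusted p = 0.178), followed by *Msrb2* (-0.44, adjusted p = 0.311). Those 2 were lower, whereas with total counts only 0 were lower and 3 higher at that p.

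Glutathione supplies *Gpx1*, *Gpx4* and *Prdx6* with electrons. *Gclc*, the catalytic subunit of glutamate-cysteine ligase and the limiting step of its synthesis, was at 23.98, 18.66 and 20.31 CPM in control-labelled libraries and at 15.85, 14.80, 13.69, 13.24 and 14.95 CPM in *Adipo-HuR-/-*-labelled ones. The modifier subunit *Gclm* was at 43.8, 51.7 and 43.9 CPM and at 38.2, 32.2, 25.3, 34.7 and 29.4 CPM. Glutathione reductase, *Gsr*, which regenerates glutathione from its oxidized form, was at 23.7, 25.7 and 26.2 CPM and at 22.6, 12.9, 12.8, 12.4 and 15.4 CPM. In these 3, the genes of smallest p in their list, each library labelled *Adipo-HuR-/-* lay below each labelled control, with A24 the highest of its group. In *Gsr* and *Gclc* that order depended on TMM scaling. With total counts only, *Gsr* in A24, and *Gclc* in A24, A25 and A31, were above A8. The groups thus overlapped in both genes, and did not overlap in *Gclm*. After TMM scaling, groups did not overlap in 5 of the 15 genes of the list, these 3 lower and *Ggt5* and *Ggt7* higher, against 11.5% of all genes. Log2 fold changes were -0.53 (SE 0.139, 95% interval -0.84 to -0.23, adjusted p = 0.0976) for *Gclc*, -0.54 (SE 0.159, 95% interval -0.89 to -0.19, adjusted p = 0.124) for *Gclm* and -0.73 (SE 0.204, 95% interval -1.18 to -0.28, adjusted p = 0.113) for *Gsr*. Over all alternatives they ran from -0.61 to -0.32 for *Gclc*, -0.65 to -0.30 for *Gclm* and -0.92 to -0.51 for *Gsr*. None of the 3 was past the threshold by edgeR over all 8 libraries, and DESeq2's Wald test placed *Gsr* past it. By edgeR, *Gsr* was past it with A24 left out (-0.92, adjusted p = 0.0358) and *Gclm* with the mitochondrial score as a covariate (-0.62, adjusted p = 0.0486). Of the 15 genes for glutathione synthesis, reduction and glutaredoxins, 0 were past the threshold by edgeR, 0 by limma voom and 2 by DESeq2's Wald test (*Gsr* and *Ggt5*), against 5.54% of all genes by the last. At an unadjusted p of at most 0.05 there were 5 lower and 3 higher, and the median was -0.15. With total counts only, 1 was lower and 4 were higher at that p.

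**Figure D4:**
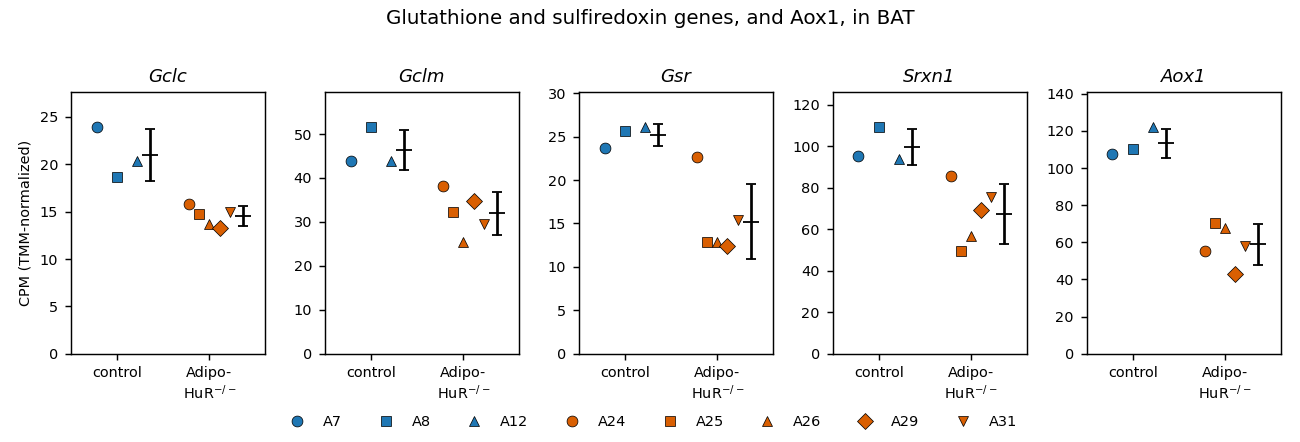
Level of glutathione genes (Gclc, Gclm, Gsr), sulfiredoxin (Srxn1) and aldehyde oxidase (Aox1) (y axis, CPM after TMM scaling, from 0) in each BAT library labelled control (blue) or Adipo-HuR-/- (orange). Points are libraries, and bars give the mean and SD (n = 3 and n = 5). These 5 were chosen after their values were seen, as genes whose groups do not overlap after TMM scaling, and only Aox1 is past the threshold by edgeR.

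Among 20 glutathione transferases, 0 were past the threshold by edgeR, 2 by DESeq2's Wald test (*Gstm2* and *Gstt2*, against 5.54% of all genes) and 1 by limma voom (*Gstt2*, against 1.06%). *Gstt2* averaged 16.7 ± 5.47 CPM (SD over n = 3) for the control label and 36.5 ± 7.02 CPM (SD, n = 5), with a log2 fold change of 1.13 (adjusted p = 0.0661). It was followed by *Gstm2* (-0.65, adjusted p = 0.110) and *Mgst3* (-0.77, adjusted p = 0.137). By edgeR, *Gstt2* was past the threshold with total counts only, and *Gstt2* and *Mgst3* with the mitochondrial score. Of 15 genes for NADPH supply, 0 were past the threshold by edgeR or limma voom and 1, *G6pdx*, by DESeq2's Wald test. *G6pdx*, the first enzyme of the pentose phosphate pathway, had a log2 fold change of -0.78 (adjusted p = 0.141), *Mthfd2l* -0.65 (adjusted p = 0.177) and *Nadk* 0.28 (adjusted p = 0.435). In the NRF2 pathway, 0 of 22 were past the threshold by the 3 tools, 5 (against 17.0% of all genes) had an unadjusted p of at most 0.05, all lower, and *Gclc*, *Gclm* and *Srxn1* had the smallest p. In this pathway 14 of 22 were below 0. With total counts only, 9 of 22 were below 0, and 0 were lower and 1 higher at that p.

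Of 18 enzymes that produce oxidants, 1 was past the threshold, *Aox1*, an aldehyde oxidase that yields hydrogen peroxide and superoxide. It was at 108, 110.4 and 122 CPM in control-labelled libraries and at 55.5, 70.2, 67.9, 42.9 and 57.8 CPM in *Adipo-HuR-/-*-labelled ones. The groups did not overlap, and the log2 fold change was -0.95 (SE 0.173, 95% interval -1.33 to -0.56, adjusted p = 0.0444). The call was lost with any 1 of the 8 libraries left out, where the adjusted p lay between 0.0582 and 0.106, and was also lost with total counts only, limma voom, the top transcript, the muscle score and without A24 and A25, with adjusted p of up to 0.179. DESeq2's Wald test placed 3 of the 18 past the threshold (*Aox1*, *Maoa* and *Acox2*, against 5.54% of all genes) and limma voom 0, edgeR with the mitochondrial score also placed *Maoa* past it, and the log2 fold change of *Aox1* stayed between -1.02 and -0.71 in all alternatives.

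For *Gpx1* and *Gpx4*, which need selenium, 0 of 20 genes of selenoprotein synthesis were past the threshold by the 3 tools. *Selenop*, the plasma carrier of selenium, had a log2 fold change of -0.48 (adjusted p = 0.165), *Selenom* 0.58 (adjusted p = 0.255) and *Selenot* -0.33 (adjusted p = 0.348). For *Cat*, which is imported into peroxisomes, 0 of 21 genes of peroxisome biogenesis were past the threshold by edgeR or limma voom, and 2 by DESeq2's Wald test (*Pex6* and *Abcd2*, against 5.54% of all genes). *Abcd2*, a fatty acid transporter of the peroxisome membrane, had -1.02 (adjusted p = 0.0639), *Pex6*, which recycles the import receptor, 0.81 (adjusted p = 0.0651) and *Pex14*, part of the import pore, 0.48 (adjusted p = 0.113). By edgeR, *Abcd2* was past the threshold with A8 left out (-1.19, adjusted p = 0.0426) and *Pex6* with total counts only. The median of the 21 was 0.032. Among 6 tested relatives of the 10 genes, 0 were past the threshold by the 3 tools: *Sod3* had -0.42 (adjusted p = 0.255), *Prdx4* -0.48 (adjusted p = 0.463) and *Ccs*, the copper chaperone of *Sod1*, 0.24 (adjusted p = 0.619). *Gpx2*, *Gpx5* and *Gpx6* were at 0 in all 8 libraries. Of the 18 mitochondrial genes, 0 were past the threshold by the 3 tools, led by *Tomm70a* (0.52, adjusted p = 0.138), *Tomm40* (0.44, adjusted p = 0.246) and *Hspe1* (0.58, adjusted p = 0.255). In this list 11 genes were higher and 7 lower, with a median of 0.033.

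Markers of other cells differed between libraries. All 26 skeletal muscle markers passed the filter and were lower in *Adipo-HuR-/-*-labelled libraries, with a median of -4.50, and 2 of them, *Myh7* and *Myl1*, were past the threshold by edgeR, 9 by DESeq2's Wald test, 0 by limma voom and 0 by edgeR without A24 and A25. With 1 library left out, 9 were past it without A12, 1 without A8 and 0 without any other. The median was -2.53 by limma voom and -2.94 over the 8 of 26 with at least 10 counts in every library, -4.68 over the 14 of 26 that passed the filter with A31 left out, and over all 26 it was -3.50 with A7 left out, -3.92 without A24 and A25 and -5.07 with A12 left out. They summed to 4672, 3001 and 68.7 CPM in control-labelled libraries and 68.0, 48.0, 59.3, 65.4 and 529 CPM in *Adipo-HuR-/-*-labelled ones, with none at 0 in all libraries and *Myh4* the most abundant. A7 and A8 stood far above A12, and A31 above the other 4 libraries of its group. With this score as a covariate, 0 of the 10 antioxidant genes were past the threshold, and the log2 fold change was -0.58 for *Cat* and 0.067 for *Sod1*. The r of the score with the antioxidant genes lay between -0.24 for *Prdx3* and 0.51 for *Prdx2* over 8 libraries.

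The 12 brown adipocyte markers, led by *Ucp1*, summed to 7836, 17830.5 and 13540.0 CPM in control-labelled libraries and 15995, 7855, 11336, 11699.9 and 14615 CPM in *Adipo-HuR-/-*-labelled ones, and the 10 adipocyte markers, led by *Fabp4*, to 13855, 25033 and 18372 and 19743, 13943, 17094, 15544 and 19263 CPM. In each group the sums of both lists were highest in the same library as *Gpx4*, A8 or A24. None of these 22 markers was past the threshold by edgeR or limma voom, 1 was by DESeq2's Wald test (*Cfd*), and 4 had an unadjusted p of at most 0.05. Those with the smallest p were *Prdm16* (adjusted p = 0.218), *Lhx8* (0.226) and *Elovl3* (0.366), and *Cfd* (0.133), *Retn* (0.172) and *Cebpa* (0.338). All of these were higher in *Adipo-HuR-/-*-labelled libraries, whereas 6 of the 12 brown adipocyte and 6 of the 10 adipocyte markers were lower. The medians of the lists were -0.0086 and -0.095. With total counts only, 0 and 1 were lower. The 14 macrophage markers, led by *Lyz2*, summed to 152, 54.4 and 188 and 172, 130.2, 102, 94.0 and 102 CPM, with *Cd14* (adjusted p = 0.369), *Mpeg1* (0.576) and *Mrc1* (0.595) of smallest p. *Cd14* was higher, whereas 12 of the 14 were lower, with a median of -0.29. With A12 left out, 5 of the 14 were lower. The 11 endothelial markers, led by *Cdh5*, summed to 674, 514 and 692 and 518, 715, 831, 782 and 729 CPM, with *Egfl7* (adjusted p = 0.117), *Tie1* (0.147) and *Esam* (0.322). Of the 11, 10 were higher and 1 lower, with a median of 0.26. The 12 fibroblast and mural markers, led by *Rgs5*, summed to 795, 586 and 906 and 615, 578, 478, 551 and 594 CPM, with *Des* (adjusted p = 0.129), *Col3a1* (0.198) and *Myh11* (0.290). Of the 12, 10 were lower and 2 higher, with a median of -0.20, and 6 were lower with total counts only. The erythroid list had *Alas2* (adjusted p = 0.160), *Slc4a1* (0.343) and *Hba-a2* (0.486), with 7 of the 8 tested lower, 1 higher and a median of -0.35. None of these 4 lists had a gene past the threshold by edgeR over all 8 libraries or by limma voom, DESeq2's Wald test had 1 (*Des*), and 0, 2, 3 and 1 genes had an unadjusted p of at most 0.05. With A12 left out, edgeR also placed *Des* past it. Their part in the antioxidant levels was not tested.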

How the data were processed

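BAT RNA was sequenced as poly(A) libraries. The authors deposited estimated counts per transcript, not normalized, 1 table per library. The study names CLC Genomics Workbench for mapping, and the program that wrote these estimates is not given in the sources used here. Estimates were summed per gene symbol and rounded to whole numbers (79.1% of sums were within 0.02 of one). Genes were kept with filterByExpr, scaled by TMM and tested with edgeR's quasi-likelihood F-test (R 4.3.3, edgeR 4.0.16), with Benjamini-Hochberg adjustment over 14851 genes. Tests were first tried on simulated data. Alternatives used DESeq2 1.42.0, limma 3.58.1, total counts, other filters, the top transcript, covariates, and libraries left out. Log2 CPM used a prior count of 2. TPM used transcript lengths of GENCODE M21 (GRCm38), which gave positions too. Transcript shares were compared by a two-sided exact permutation test in Python 3.11.15.

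Pairs of libraries differed by a chi-square per degree of freedom of at least 94.5, so none is a second run of another, which does not show that each is from its own mouse. Members and lists were chosen with earlier results of these data known. Genes named from each list are those past the threshold, or otherwise the 3 with the smallest p, and for each of the 10 genes the 3 with the most similar pattern. The promoter search and the alternatives for genes outside the 10, and the count of all genes with the mitochondrial score, were chosen after seeing the data.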

Additional observations from a re-analysis of the deposited data

Results flagged for a closer look

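In 5 of the 81 groups of 5 libraries examined, 1 library lay far from the others of its label, by a gap that chance gives in about 1 of 20 groups. Within the group labelled *Adipo-HuR-/-*, *Ccs* was at 55.7 CPM in A24, above the other 4 libraries. *Tomm70a* was at 90.9 CPM in A25, below the others. *Myh11*, a mural marker, was at 8.06 CPM in A24, below the others. The *Prdx6* transcript ENSMUST00000156678.7 held 10.7% of its gene in A24, the lowest share of its group. The skeletal muscle markers summed to 529 CPM in A31, above the others. No gene total of the 10 antioxidant genes stood apart in this way.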

How the results depend on the processing

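The 10 log2 fold changes kept their sign in 163 of 180 values over 18 alternatives, and 0 of the 10 genes were past the threshold in each alternative. *Cat*, *Prdx2*, *Prdx6* and *Sod2* did not turn sign in the 18, but *Prdx6* was at -0.00054 with total counts only and *Sod2* at 0.012 without A24 and A25. With total counts only, the sign turned for *Sod1* (0.22), *Gpx1* (0.10) and *Gpx4* (0.073), where the median of all genes also moved up, and 2 genes had groups that did not overlap. *Sod1* was also at 0.063 with limma voom and 0.067 with the muscle score. *Prdx1* was at -0.093 with the top transcript, -0.13 with the mitochondrial score and -0.060 without A24 and A25, and *Prdx5* at -0.023 without them. With each library left out in turn, *Prdx1* ranged from -0.15 to 0.24, *Prdx3* from -0.031 to 0.30, *Sod1* from -0.24 to 0.33 and *Gpx4* from -0.36 to 0.11, and 0 to 2 genes had groups that did not overlap (2 without A7 and 2 without A8, against 19.1% and 26.9% of all genes). *Gpx1* ranged from -0.35 to -0.035, *Cat* from -0.67 to -0.36, *Prdx2* from -0.45 to -0.030, *Prdx5* from 0.038 to 0.52, *Prdx6* from -0.28 to -0.18 and *Sod2* from 0.035 to 0.36. The cause was not tested. The number of all genes past the threshold, 105, was 823 with DESeq2's Wald test, 16 with the top transcript, 15 with the muscle score, 277 with the mitochondrial score (chosen after seeing the data), 5 without A24 and A25, 492 at an adjusted p of at most 0.10 with no minimum fold change, and 10 to 190 with each library left out. The 28 named genes of the related lists, cell type markers aside, kept their sign in all 504 values, in alternatives chosen after seeing the data, and their choice by p largely fixes that sign. Their sizes were less stable. With each library left out in turn, *Msrb2* ranged from -0.59 to -0.10, *Prdx4* from -0.73 to -0.11 and *Ccs* from 0.076 to 0.58. *Ggt5* fell to 0.11 in another alternative. No paired analysis was possible because the labels give no shared replicate numbers.

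With 3 and 5 libraries the intervals are wide, a gene that was not called is not shown to be alike in the groups, and the control-labelled libraries include A7 and A8 with muscle RNA. Groups rest on labels that the *Elavl1* total does not check. Levels are of RNA, and enzyme protein or activity was not analysed here.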
